A study of Arabidopsis thaliana with 16 samples.

Results

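The root libraries of phosphate-starved (P-) Arabidopsis thaliana seedlings were compared between their poly(A)+ and poly(A)- RNA fractions, to find which transcripts lay in which fraction. The 4 libraries were chosen by their labels, as P- root libraries of either fraction, and are 4 of the 16 libraries of the series, with 2 libraries per fraction. All came from roots of 10-day-old wild-type Col-0 seedlings. The P- medium held no KH2PO4, its 1.25 mM being replaced by 0.65 mM K2SO4, and the P+ medium, used below for 4 further root libraries, kept it. P- shoots gave 4 more libraries for comparison. The study's methods describe the replicates as independent biological ones, collected as seedlings, and state that both fractions were taken from the same total RNA. The labels do not say which libraries share an RNA sample. The table columns are numbered 2 and 3 and the labels 1 and 2, and the libraries are called here by the column numbers.

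Most messenger RNAs of plants end in a poly(A) tail, which oligo(dT) beads capture, and the RNA left behind forms the poly(A)- fraction once rRNA is depleted. RNAs made by RNA polymerase III, such as the 7SL RNA of the signal recognition particle, end in a run of U with no such tail. Small nucleolar RNAs (snoRNAs), which guide the chemical modification of rRNA, are cut out of longer precursors. In plant mitochondria, tails are added to RNA that is bound for degradation. The messenger RNAs of plant histones, unlike those of animals, carry poly(A) tails.

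The deposited values are FPKM, fragment counts scaled to transcript length and to the mapped fragments of the library, for 35176 protein-coding transcripts, 480 lncRNAs of TAIR10 and 1161 lncRNAs assembled by the study, called assembled lncRNAs here. They summed to 837198 and 892567 in the poly(A)- libraries 2 and 3 and to 966594 and 1015140 in the poly(A)+ libraries. Fragment counts are not among the values. The low values of genes with a single transcript model lay in steps, and the first step put the worth of 1 fragment on a transcript of 1 kb at 0.577 and 1.35 FPKM in the poly(A)- libraries 2 and 3, against 0.286 and 0.282 FPKM in the poly(A)+ libraries. Taken against poly(A)+ library 2, the depth of the poly(A)- libraries was thus about 0.494 and 0.211. Of the coding genes tested, 1.56% and 5.50% were listed at 0 in the poly(A)- libraries and 0.327% and 0.483% in the poly(A)+ libraries. The SD over genes of the log2 difference between replicates was 0.917 in poly(A)- and 0.647 in poly(A)+. A gene listed at 0 in poly(A)- may therefore have been below what these shallower libraries could show. All 15 root markers were measured, and their summed level was 526 and 704 FPKM in poly(A)- and 851 and 974 FPKM in poly(A)+. The sums of the 21 leaf photosynthesis genes tested were 391 and 306 FPKM in poly(A)- and 584 and 392 FPKM in poly(A)+.

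The sequences that recur below are of 4 kinds. The first set is shown because the lncRNAs with the highest levels in poly(A)- roots were alike 7SL RNA. The assembled lncRNA TCONS_00042799 lies at the AT7SL-1 locus on the minus strand, at chr4:1318876-1319180 (TAIR10.1). A further 5 transcripts aligned with it at an identity of at least 75% over at least 100 bases. The last 60 bases of the aligned part follow for 5 of the 6, with the bases that are identical to TCONS_00042799 in the alignment in capitals, and their places are chr4:1318876-1318935 minus, chr4:1476533-1476592 plus, chr2:13271856-13271915 minus, chr1:5297875-5297934 minus and chr5:3015177-3015236 plus.
TCONS_00042799: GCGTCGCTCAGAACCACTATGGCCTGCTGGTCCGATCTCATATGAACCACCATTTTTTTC
TCONS_00038204: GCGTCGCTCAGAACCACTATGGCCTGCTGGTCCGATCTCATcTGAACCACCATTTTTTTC
AT2G31141.2: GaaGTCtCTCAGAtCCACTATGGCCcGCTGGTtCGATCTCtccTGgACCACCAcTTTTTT
AT1G15405.1: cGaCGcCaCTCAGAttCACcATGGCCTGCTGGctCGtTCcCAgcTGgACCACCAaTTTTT
TCONS_00048053: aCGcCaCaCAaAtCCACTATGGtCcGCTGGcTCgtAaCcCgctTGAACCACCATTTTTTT
Of the 60 bases, 59 were identical in TCONS_00038204, 49 in AT2G31141.2, 45 in AT1G15405.1 and 44 in TCONS_00048053. All 5 stretches ended in a run of T, with a C after it in TCONS_00042799 and TCONS_00038204.

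The second set stands for the protein-coding models on chromosome 2 that made up most of the genes called higher in poly(A)-. This stretch of chromosome 2 holds a nuclear copy of the mitochondrial genome. The 60 bases from AT2G07671.1 (annotated as an ATP synthase subunit C family protein, chr2:3251894-3251953, minus strand) and from AT2G07698.1 (annotated as an alpha subunit of the ATPase F1 complex, chr2:3363324-3363383, plus strand) are without a mismatch to the mitochondrial genome, within matches of 776 and 1608 bases at 100% identity. Letters are in lower case because no base differs.
AT2G07671.1: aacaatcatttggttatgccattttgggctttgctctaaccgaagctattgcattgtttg
AT2G07698.1: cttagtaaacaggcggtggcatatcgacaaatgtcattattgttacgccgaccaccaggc
A fragment of such a stretch has the same letters in both genomes, and the source of the RNA cannot be told apart from the sequence.

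The third set is a pair of snoRNAs that lie on the same strand inside the lncRNA AT5G06165.1, the lncRNA of this kind with the largest difference between the fractions. The letters TGATGA within the first 20 bases and CTGA within the last 15, which are the boxes C and D of this class of snoRNA, are in capitals. AT5G01195 holds both, and AT5G01165 holds CTGA but not TGATGA in these windows. They are at chr5:1867605-1867678 and chr5:1867740-1867831 on the minus strand.
AT5G01165: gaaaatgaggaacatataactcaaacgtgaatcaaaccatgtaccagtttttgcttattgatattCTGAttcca
AT5G01195: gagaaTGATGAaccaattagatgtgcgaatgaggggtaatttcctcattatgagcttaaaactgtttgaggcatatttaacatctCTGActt
Read on the snoRNA's own strand, both motifs at these ends were in 120 of the 287 annotated snoRNAs, or 41.8%.

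The fourth set shows the poly(A) signal letters AATAAA, in capitals, in the last 50 bases of AT1G21529.1 (chr1:7543924-7543973, minus strand) and TCONS_00050452 (chr5:13986290-13986339, plus strand), the lncRNAs named by the study that held them.
AT1G21529.1: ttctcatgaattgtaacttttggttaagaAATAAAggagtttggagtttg
TCONS_00050452: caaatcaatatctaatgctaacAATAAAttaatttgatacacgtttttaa
On the RNA strand, these 6 letters were in the last 50 bases of 10.06% of coding transcripts and 8.44% of lncRNAs with a model.

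Among coding genes, most calls in poly(A)- were genes of the mitochondrial copy, and the genes called in either direction were short. Of the 19240 coding genes with a mean of at least 1 FPKM, 28 were called higher in poly(A)+, or 0.146%, and 32 in poly(A)-, or 0.166% (limma on log2(FPKM + 1), at least 2-fold and adjusted p of at most 0.05). With the library number as a replicate block the calls were 149 and 44. With the libraries rescaled to a common median ratio the calls were 16 and 32, and with a common total 18 and 34. These scalings moved the median of all genes by -0.15 and -0.18 (log2). Without poly(A)- library 2 the calls were 178 and 40, without poly(A)- library 3 or poly(A)+ library 3 they were 0 and 0, and without poly(A)+ library 2 they were 1 and 4, so that the counts depended on single libraries. Without any test, 3612 genes, or 18.8%, were at least 2-fold higher in poly(A)+ and 737, or 3.83%, in poly(A)-. The median log2 difference of poly(A)+ minus poly(A)- was 0.30.

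**Figure D1:**
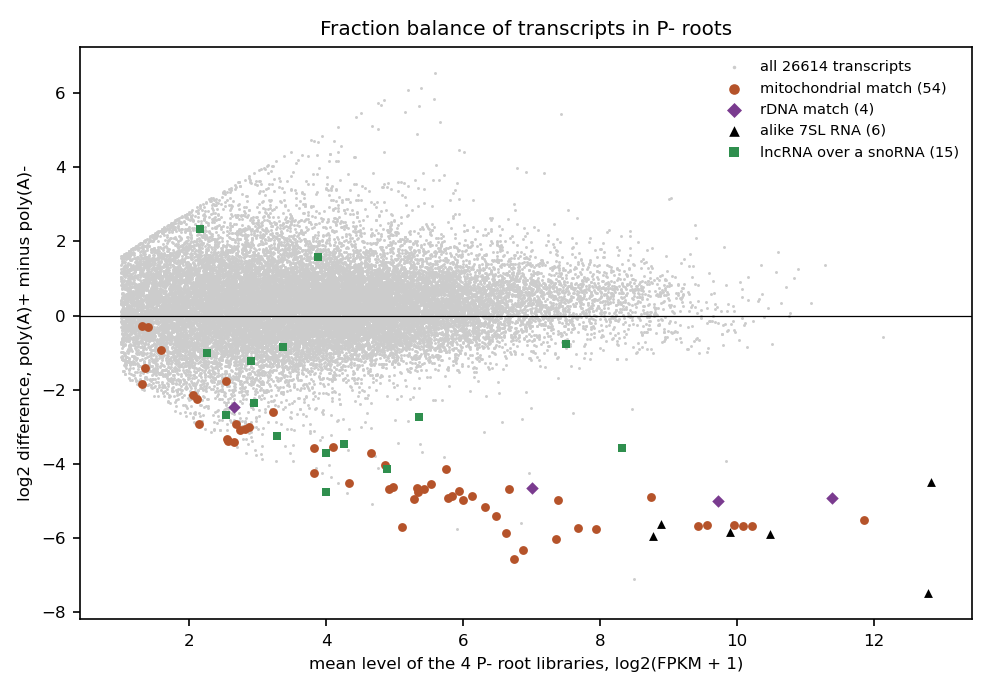
Each point is 1 of 26614 transcripts in P- roots, with its mean level over the 4 libraries as log2(FPKM + 1) on the x axis and its log2 difference, poly(A)+ minus poly(A)-, on the y axis. The 54 transcripts with a mitochondrial match, the 6 alike 7SL RNA and the 4 with an rDNA match all lie below 0, and of the 15 lncRNAs over a snoRNA 13 do.

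Of the 32 genes called higher in poly(A)-, 27 matched the mitochondrial genome over at least 50% of their length. These groups by sequence match were formed after the values had been seen, and they get no test of their own. They lie at chr2:3239693-3503476, where 50 such genes were tested, and their median log2 difference was -4.67, against 0.30 for all other coding genes. Counted as transcripts, 54 of 54 were higher in poly(A)-, 51 at least 2-fold, where 8.78% of all 26614 transcripts were. They made up 1.97% and 2.99% of the FPKM sum in poly(A)- libraries 2 and 3, and 0.0803% and 0.0264% in poly(A)+.

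The gene with the highest level was AT2G07671, annotated for the membrane ring subunit of ATP synthase. Its level was 6006 and 8446 FPKM in poly(A)- and 337 and 71.5 FPKM in poly(A)+, a log2 difference of -5.51 (SE 0.86, adjusted p = 0.047). AT2G07698, annotated for the alpha subunit of the catalytic F1 part of the same enzyme, was at 1455 and 3238 FPKM against 61.2 and 28.4 FPKM (log2 difference -5.67, SE 0.67, adjusted p = 0.017). The respiratory chain was represented by AT2G07687, annotated as subunit III of cytochrome c oxidase, at 1849 and 2409 FPKM in poly(A)- and 78.3 and 20.6 FPKM in poly(A)+. In each of these genes the lowest poly(A)- value stood far above the highest poly(A)+ value.

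A further 3 annotated respiratory genes behaved alike. AT2G07695, like subunit II of cytochrome c oxidase, was at 188 and 783 FPKM in poly(A)- and 6.10 and 6.21 FPKM in poly(A)+. AT2G07777, annotated as ATP synthase subunit 9, was at 189 and 617 FPKM against 4.55 and 6.56 FPKM. AT2G07785, annotated for NADH dehydrogenase, was at 183 and 201 FPKM against 7.02 and 0.376 FPKM. Their log2 differences were between -5.86 and -5.72. Of these, AT2G07695 and AT2G07777 were higher in poly(A)- library 3 than in library 2, while AT2G07785 was at a like level in both.

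AT2G07674, an uncharacterized model, had the largest difference of the coding genes, -6.57 (SE 0.74, adjusted p = 0.013), with 73.3 and 348 FPKM in poly(A)- and 1.12 and 0.364 FPKM in poly(A)+. AT2G07675, of the ribosomal protein S12 family, was at 212 and 246 FPKM against 7.29 and 0 FPKM (-6.31). AT2G07689, a complex I protein, was at 432 and 210 FPKM against 9.32 and 1.05 FPKM (-6.04). The fourth in order was AT2G31141, the coding model alike 7SL RNA.

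AT2G07676 (uncharacterized) was at 22.8 and 111 FPKM in poly(A)- and at or below 6.8e-09 FPKM in poly(A)+, with a log2 difference of -5.69. The assembled lncRNA TCONS_00021569 runs over it on the other strand at chr2:3271893-3273731 and matched the mitochondrial genome over its whole length. It stood at 92.9 and 216 FPKM in poly(A)- and 4.39 and 1.92 FPKM in poly(A)+ (-5.17, adjusted p = 0.097). One set of root libraries was mapped without strand by the labels, so that the reads of the 2 strands cannot be told apart there.

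The other 5 genes called higher in poly(A)- were named after their values were seen. AT2G16586 was at 4559 and 5706 FPKM in poly(A)- and 411 and 67.6 FPKM in poly(A)+, and AT2G01008 at 1663 and 1600 FPKM against 96.5 and 25.5 FPKM. Both matched the rDNA repeat of chromosome 3, as did 4 transcripts in all, whose differences lay between those of AT2G01008 and AT3G41761, at 2.85 and 17.1 FPKM in poly(A)- and 1.26 and 0 FPKM in poly(A)+ (-2.47). AT2G35750, which has a pair of snoRNAs on its strand, was at 2145 and 1306 FPKM against 100.2 and 121 FPKM (-3.91, adjusted p = 0.048). AT2G17055 was at 10.9 and 13.4 FPKM in poly(A)- and listed at 0 in both poly(A)+ libraries. AT2G31141 had 1386 and 344 FPKM in poly(A)- and 16.0 and 6.42 FPKM in poly(A)+ (-5.95, adjusted p = 0.021).

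**Figure D2:**
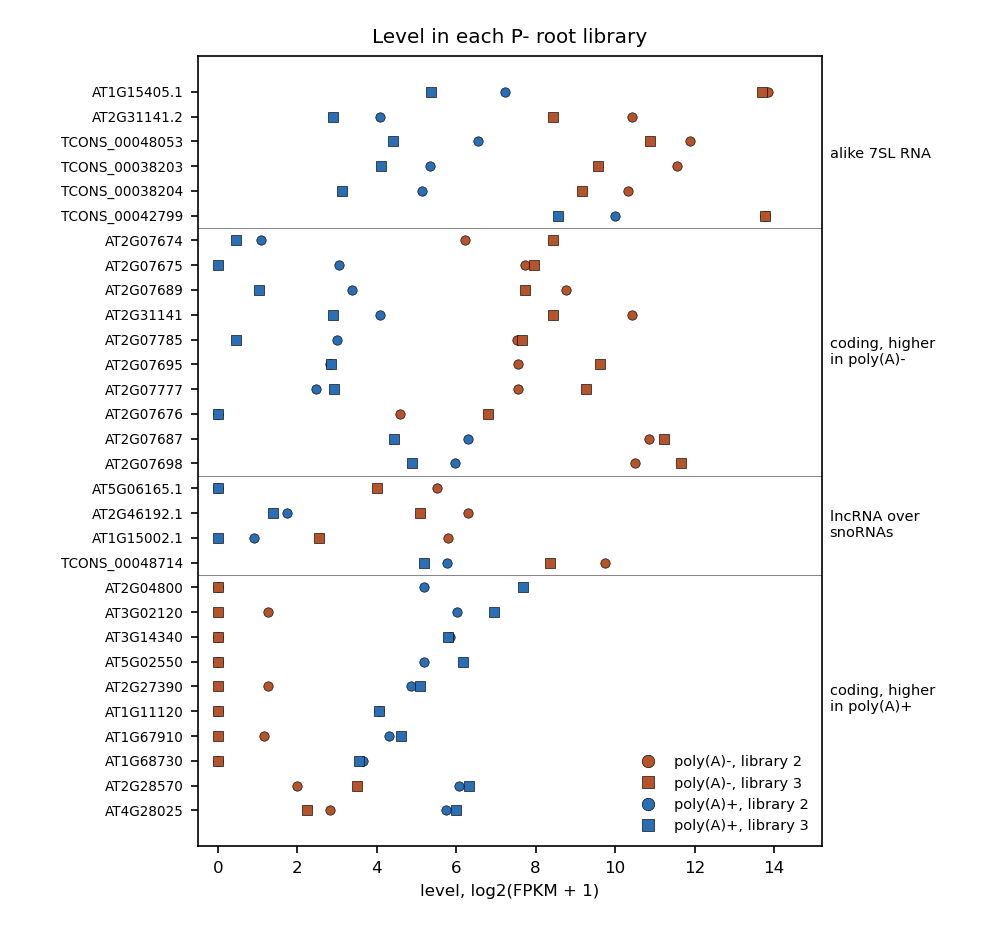
Level of named transcripts and genes in each P- root library, as log2(FPKM + 1), with poly(A)- libraries in brown and poly(A)+ libraries in blue, and circles for library 2 and squares for library 3. In every row shown the poly(A)- and the poly(A)+ points do not overlap, and 10 coding genes at the foot are at or near 0 or low in poly(A)-.

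Among lncRNAs, the RNAs alike 7SL reached the highest levels and lay in the poly(A)- fraction. AT1G15405.1, a TAIR10 lncRNA of 292 bases, was at 14808 and 13343 FPKM in poly(A)- and 148 and 40.3 FPKM in poly(A)+. Its log2 difference of -7.48 (SE 1.01) had an adjusted p of 0.083 by limma and did not pass. TCONS_00042799 was at 13999 and 14019 FPKM against 1020 and 379 FPKM (-4.49, adjusted p = 0.20). The annotated transcript AT4G02970.1 on the other strand of this locus was listed at or near 0 in all 4 libraries.

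TCONS_00048053 was at 3748 and 1873 FPKM in poly(A)- and 92.2 and 20.1 FPKM in poly(A)+, with a difference of -5.90. TCONS_00038203 was at 3013 and 754 FPKM against 39.9 and 16.1 FPKM (-5.84), and TCONS_00038204 of the same locus at 1290 and 573 FPKM against 34.3 and 7.73 FPKM (-5.62). Each of the 3 models has 2 exons. No coding gene on the opposite strand of these 3 models exceeded 3.42 FPKM in any P- root library. The 6 transcripts alike 7SL made up 4.57% and 3.46% of the FPKM sum in poly(A)- and 0.140% and 0.0462% in poly(A)+. Their median difference was -5.87.

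TCONS_00039988 is an intergenic model of 328 bases at chr4:10180261-10180588 that was not alike 7SL. It was at 959 and 464 FPKM in poly(A)- and 22.5 and 0 FPKM in poly(A)+ (-7.11, adjusted p = 0.17). TCONS_00007642, also intergenic, was at 433 and 20.0 FPKM against 0.973 and 1.01 FPKM (-5.58, adjusted p = 0.20), so that its 2 poly(A)- libraries differed widely.

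lncRNAs with a snoRNA on their own strand were also mostly higher in poly(A)-. Of 15 tested, 13 were higher in poly(A)-, 10 of them at least 2-fold, with a median of -2.67, and none passed the adjusted p. Of all 1269 lncRNAs, 405 were higher in poly(A)-, 112 of them at least 2-fold. With 1 library left out, the median of the 15 lay between -3.86 and -1.48. AT5G06165.1, the host of the pair of snoRNAs printed above, was at 44.5 and 15.1 FPKM in poly(A)- and listed at 0 in both poly(A)+ libraries. AT2G46192.1, which holds 5 snoRNAs, was at 77.6 and 33.2 FPKM against 2.32 and 1.62 FPKM (-4.13, adjusted p = 0.13). TCONS_00048714 was at 855 and 328 FPKM against 53.5 and 35.2 FPKM (-3.58, adjusted p = 0.083). Poly(A)- library 2 stood above library 3 in all 3. The other direction was seen for AT1G18745.1, over 4 snoRNAs, at 14 and 2.04 FPKM in poly(A)- and 17.3 and 21.7 FPKM in poly(A)+, and for AT1G20691.1. The 16 coding transcripts with a snoRNA on their strand had a median of 0.51, with 5 of 16 higher in poly(A)-.

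Over all lncRNAs the balance leaned to poly(A)+. The median difference was 0.84 over 321 TAIR10 lncRNAs and 0.53 over 948 assembled lncRNAs, against 0.25 over 25345 coding transcripts. By length, with transcripts of a sequence match left out, lncRNAs had 1.17 under 500 bases and coding transcripts 1.32. From 500 to below 1000 bases the medians were 0.98 and 0.94, and from 1000 to below 2000 they were 0.53 and 0.39. From 2000 to below 4000 bases they were 0.21 and -0.13, and from 4000 bases -0.67 and -0.68. The part of length and of depth in the gap was not tested. Of the 1269 lncRNAs, 864 were higher in poly(A)+, with all 4 libraries apart in 440, or 34.7%, and in 169, or 13.3%, in the direction of poly(A)-. Of the 25345 coding transcripts, 8858 and 4686 were apart in these directions. No lncRNA was called by limma in either direction, the smallest adjusted p being 0.053, while 199 and 46 had an unadjusted p under 0.05 in the direction of poly(A)+ and poly(A)-. In the same fit 5 of 26614 transcripts were called, all coding and higher in poly(A)+, or 0.0188%, and none in poly(A)-, and with the replicate block none was called in either direction.

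The 8 lncRNAs named by rule for poly(A)+ were all assembled lncRNAs antisense to a coding gene. Most assembled lncRNAs were antisense, 815 of the 948 tested and 253 of the 302 apart towards poly(A)+. TCONS_00010955, at chr1:9621567-9621866, was at or near 0 in poly(A)- and at 95.7 and 47.1 FPKM in poly(A)+ (6.09, adjusted p = 0.053). The gene on its other strand, AT1G27660, was at 3.50 and 1.28 FPKM in poly(A)- and 7.62 and 9.98 FPKM in poly(A)+. TCONS_00017184 was at or below 0.0123 FPKM in poly(A)- and at 26.2 and 41.9 FPKM in poly(A)+ (5.08, adjusted p = 0.097), while SQN on the other strand was at 27 and 12.2 against 15.7 and 20.6 FPKM. The lncRNA was thus apart between the fractions and the gene opposite was not. Since 1 set of root libraries was mapped without strand, the limit given above for TCONS_00021569 also holds for these antisense pairs.

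TCONS_00015036 was at 0.656 and 0.0110 FPKM against 30.7 and 106 FPKM, TCONS_00021059 at 1.14 and near 0 against 29.6 and 72.9 FPKM, and TCONS_00018830 at 0.0421 and near 0 against 21.3 and 31.1 FPKM. Their differences were 5.49, 5.02 and 4.71. TCONS_00058907, TCONS_00056896 and TCONS_00040552 had differences of 4.68 to 4.73 and adjusted p-values of 0.27 to 0.30. Of the genes opposite, PDF2.1, a defensin, had 10.0 and 24.2 FPKM in poly(A)- and 24.4 and 306 FPKM in poly(A)+ and lies opposite TCONS_00021059. In all 8, the values in poly(A)- were below the level of 3 fragments on a transcript of 1 kb, which is 1.73 and 4.05 FPKM.

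Of the lncRNAs named by the study, AT5G53048.1 was at 18.24 and 13 FPKM in poly(A)- and 74.9 and 72.5 FPKM in poly(A)+ (2.19, SE 0.48, adjusted p = 0.20). AT5G01595.1, opposite FER1, a ferritin gene, was at 12.1 and 28.3 against 55.1 and 95.3 FPKM (1.91, adjusted p = 0.27). AT1G21529.1, one of the lncRNAs with AATAAA printed above, was at 11.1 and 0 against 40.7 and 19.3 FPKM (3.06, adjusted p = 0.29). These 3 were apart between the fractions and none passed. AT3G57157.1, another that the study names, was added after its values were seen. It was at 276 and 7.78 FPKM in poly(A)- and 673 and 10.2 FPKM in poly(A)+ (0.82, adjusted p = 0.91), and its fractions overlapped.

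IPS1 (AT3G09922), which is induced by Pi starvation and acts as a decoy of miR399, was at 867 and 475 FPKM in poly(A)- and 1357 and 957 FPKM in poly(A)+ (0.83, adjusted p = 0.52 in the gene fit). Its relative AT4 (AT5G03545) was at 1509 and 998 FPKM against 2235 and 1994 FPKM (0.78, adjusted p = 0.25). Both fractions thus held these RNAs at high levels, and in each of them the libraries of the fractions were apart.

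Precursors of trans-acting siRNAs were split. TAS4 was at 2.40 and 0 FPKM in poly(A)- and 14.4 and 21.0 FPKM in poly(A)+ (3.32), TAS3a at 42.0 and 13.0 against 130 and 106 FPKM (2.27), and TAS2 at 9.31 and 5.49 against 24.9 and 19.9 FPKM (1.51). These 3 had adjusted p-values of 0.20 to 0.23. The 8 known noncoding RNAs tested, these and IPS1 and AT4 among them, had a median of 0.80. TAS1a, TAS1b and TAS1c had differences of 0.53, -0.29 and -0.39, and their fractions overlapped.

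The starvation-related assembled loci named by the study showed no set order. TCONS_00050452, the other lncRNA with AATAAA above, was at 35.4 and 28.5 FPKM in poly(A)- and 25.1 and 42.0 FPKM in poly(A)+ (0.03). TCONS_00057043 was at 69.6 and 24.5 against 146 and 30.2 FPKM (0.68). TCONS_00019480, antisense to CASP1, was at 63.5 and 521 against 174 and 361 FPKM (0.46). TCONS_00012815 was at 0 and 13.5 against 0 and 2.36 FPKM (-1.05). In these 4 the fractions overlapped. Of the 3 isoforms of XLOC_001691, TCONS_00003478 was apart, with 8.88 and 7.36 FPKM against 27.5 and 10.2 FPKM (0.98), while TCONS_00003479 (-0.36) and TCONS_00003481 (2.01) overlapped.

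By the rule of the study, a lncRNA was poly(A)+ where its mean FPKM was at least 2 times higher in that fraction, poly(A)- where the ratio was at most 0.5, and bimorphic between these. Of the 1552 lncRNAs with a value, 678 were poly(A)+, a share of 43.7% (Wilson 95% interval 41.2 to 46.2%). Bimorphic lncRNAs numbered 631, or 40.7%, and poly(A)- lncRNAs 243, or 15.7% (13.9 to 17.5%). The intervals cover the number of lncRNAs and not the spread between libraries. When all 4 pairings of a poly(A)+ with a poly(A)- library had to pass, the classes held 382, 1093 and 77. TAIR10 lncRNAs were poly(A)+ in 52.2% and assembled ones in 40.7%, with poly(A)- shares of 13.1% and 16.6%.

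**Figure D3:**
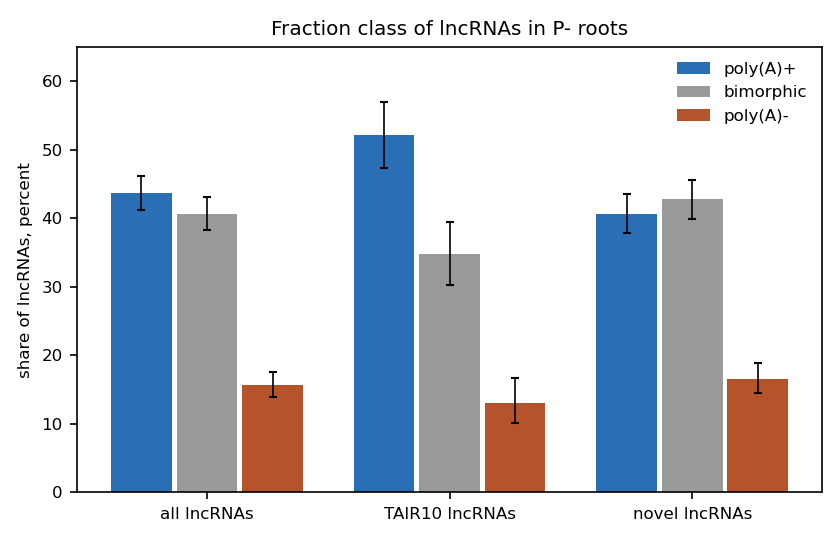
Share of lncRNAs, in percent, in each fraction class in P- roots, for all 1552 classed lncRNAs, the 406 of TAIR10 and the 1146 assembled ones, with Wilson 95% intervals as error bars. The poly(A)+ bar is at 52.2% for TAIR10 lncRNAs and 40.7% for assembled ones, and the poly(A)- bar is the lowest in each set.

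By location, of 52 assembled lncRNAs in pseudogenes 65.4% were poly(A)+ and 7.69% poly(A)-. Of 949 antisense ones, 38.3% were poly(A)+ and 16.2% poly(A)-, and of 89 intergenic ones 46.1% and 25.8%. These shares are a description with no test. The 32 pseudogene lncRNAs with a mean of at least 1 FPKM had median levels of 2.15 and 1.17 FPKM in poly(A)-, near the level of 3 fragments. Beside these shares stands the depth of poly(A)-, whose part was not tested. Of the lncRNAs with a model, 116 of the 644 poly(A)+ ones were listed at 0 in both poly(A)- libraries. Among the 972 lncRNAs whose higher mean exceeded the level of 3 fragments in poly(A)- library 3, 36.9% were poly(A)+, 48.0% bimorphic and 15.0% poly(A)-.

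The letters AATAAA in the last 50 bases were in 7.76% of poly(A)+, 8.90% of bimorphic and 9.13% of poly(A)- lncRNAs. The median length was 966, 1309 and 1314 bases in these classes, the median GC content 40.8%, 41.4% and 40.7%, and the longest run of A had a median of 6 bases in all 3.

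The genes called higher in poly(A)+ were short, with a median length of 810.5 bases against 1667 over all coding genes. Those called higher in poly(A)- were short too, with a median of 895 bases. Of the 28, 9 were listed at 0 in at least 1 poly(A)- library and 5 in both. Their poly(A)+ values in both libraries were above the level of 3 fragments in either poly(A)- library for 28 of 28. Since these genes were chosen for high poly(A)+ values, this count says little about the limit set by depth. AT3G02120, a hydroxyproline-rich glycoprotein, was at 1.41 and 0 FPKM in poly(A)- and 64.1 and 122 FPKM in poly(A)+ (5.85, SE 0.52, adjusted p = 0.0098). For its longest model of 614 bases, 3 fragments would give 2.82 and 6.6 FPKM in the poly(A)- libraries.

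AT5G02550 (uncharacterized) was listed at 0 in both poly(A)- libraries and at 35.5 and 71.4 FPKM in poly(A)+ (5.68, adjusted p = 0.0080). AT3G14340 (uncharacterized) was at or below 0.00069 FPKM against 56.6 and 54.1 FPKM (5.82, adjusted p = 0.0080). AT2G04800 (uncharacterized) was near 0 against 35.6 and 203 FPKM (6.43, adjusted p = 0.028). For these genes the fitted difference depends on the 1 FPKM added before the log and is no bound.

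AT2G27390, a proline-rich protein, was at 1.39 and 0 FPKM in poly(A)- against 28.2 and 33.0 FPKM (4.35), and AT1G67910 at 1.22 and 0 against 18.8 and 23.3 FPKM (3.88). AT1G11120 and AT1G68730, a Zim17-type zinc finger protein, were listed at 0 in poly(A)- and were at 15.8 and 15.5 and at 11.6 and 10.8 FPKM in poly(A)+. AT2G28570, at 3 and 10.3 against 65.9 and 79.2 FPKM (3.44), and AT4G28025, at 6.03 and 3.76 against 52.7 and 62.6 FPKM (3.34), were measured above 0 in all 4 libraries.

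Genes with a known role among the 28 were named after their values were seen. FLC, a repressor of flowering, was listed at 0 in poly(A)- and at 6.79 and 8.46 FPKM in poly(A)+ (3.102, adjusted p = 0.044). CPL3, a MYB factor of epidermal patterning, was at 8.63 and 9.99 FPKM against 94.9 and 96.0 FPKM (3.23, adjusted p = 0.022). SCRL7, a small cysteine-rich protein, was at 43.3 and 44.2 against 301 and 347 FPKM (2.86, adjusted p = 0.0198). AGP25, an arabinogalactan protein of the cell wall, was at 11.4 and 18 against 80.7 and 117 FPKM (2.68, adjusted p = 0.044). The fractions did not overlap in any of the 4. For FLC, 3 fragments would give 1.66 and 3.89 FPKM in the poly(A)- libraries, so that its poly(A)+ level is not far above what library 3 could show, and its fitted difference depends on the 1 FPKM added.

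The fraction balance moved with transcript length. Transcripts with a match to an organelle genome, the rDNA repeat or the RNA of the signal recognition particle were left out of the length bins and their rho. The median difference of coding transcripts was 1.32 under 500 bases (n = 167), 0.94 from 500 to below 1000, 0.39 from 1000 to below 2000, -0.13 from 2000 to below 4000 and -0.68 from 4000 bases (n = 883). lncRNAs gave 1.17, 0.98, 0.53, 0.21 and -0.67 in the same bins. Spearman's rho of length and difference was -0.46 over 25196 coding transcripts and -0.28 over 1223 lncRNAs, as a description, since transcripts share libraries and are no replicates. With each single pairing of libraries it lay between -0.43 and -0.37 for coding transcripts and between -0.24 and -0.20 for lncRNAs. When only means of 20 FPKM or more were kept, a limit chosen after the data were seen, rho was -0.61 over 9004 coding transcripts and -0.11 over 171 lncRNAs. The matching transcripts were not left out of this subset, so that the change in rho cannot be put down to level. The order of bins was the same in P+ roots, from 1.57 to -1.16 for coding transcripts. In P- shoots it was not, since coding transcripts under 500 bases had 0.94 and those from 500 to below 1000 had 1.15, and the later bins fell to -1.05. The part of fragment size, library chemistry and depth in this trend was not tested.

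**Figure D4:**
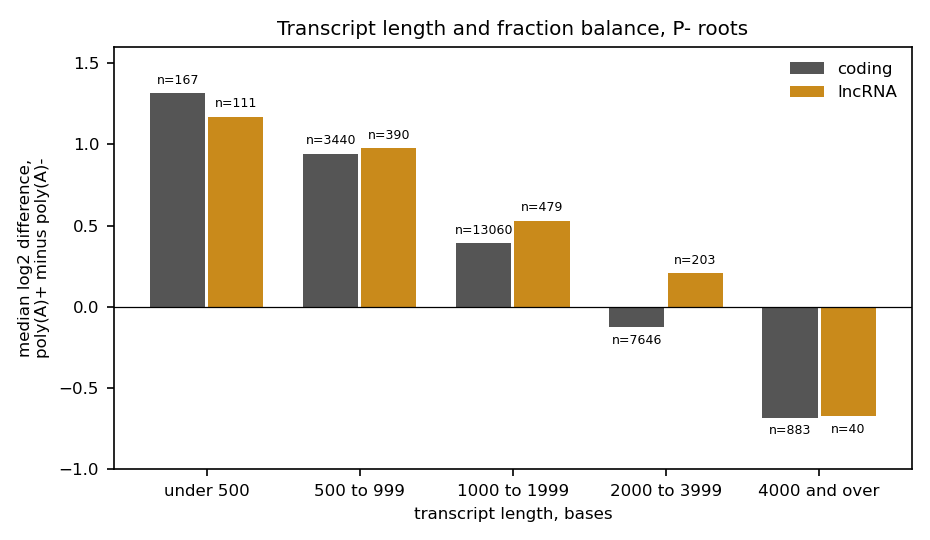
Median log2 difference, poly(A)+ minus poly(A)-, by transcript length in bases, for coding transcripts (grey) and lncRNAs (ochre), with the number tested at each bar. The bars fall from 1.32 to -0.68 for coding transcripts and from 1.17 to -0.67 for lncRNAs. Transcripts with a match to an organelle genome, the rDNA repeat or the RNA of the signal recognition particle are left out.

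None of the 14 gene lists had a member that passed by limma, where 0.146% and 0.166% of all coding genes did, and each list is given beside the all-gene median of 0.30. With the replicate block 3 listed genes passed, HTA13 (adjusted p = 0.046), RBCS1A (0.045) and AT4G08400 (0.045), all higher in poly(A)+. Over all coding genes, the libraries were apart in 39% towards poly(A)+ and in 17.9% towards poly(A)-. Nuclear mRNAs of splicing factors and histones lay towards poly(A)+. Of 19 SR proteins, which bind exons and guide splice site choice, 18 were higher in poly(A)+, with all libraries apart in 16, against 39% of all coding genes, and the median was 1.04 at a median length of 1457 bases. SR34a was at 22.3 and 13.5 FPKM in poly(A)- and 61.6 and 84.2 FPKM in poly(A)+ (1.99, adjusted p = 0.095). SR45 was at 22.0 and 5.13 against 41.3 and 63.2 FPKM (2.13, adjusted p = 0.18). SCL30 was at 22.6 and 29.7 against 61.8 and 79.3 FPKM (adjusted p = 0.14), and RSZ22a had a difference of 1.28. RS41, at 66.9 and 107 against 82.0 and 78.3 FPKM, had overlapping fractions.

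All 38 histone genes had a positive difference, from 0.02 to 1.86 with a median of 0.80, and in 22 the libraries were apart, against 39% of all coding genes. Their median length was 840.5 bases, within the bin from 500 to below 1000. In that bin, with the transcripts of a match left out, coding transcripts had a median of 0.94, and 1976 of 3440 were apart towards poly(A)+. The 22 histone genes apart are thus to be read beside this share of transcripts of like length. HTB2, coding histone H2B, was at 33.1 and 50.5 FPKM in poly(A)- and 148 and 125 FPKM in poly(A)+ (1.71, adjusted p = 0.135). HTA13, coding histone H2A, was at 17.7 and 35 against 52.4 and 165 FPKM (1.86, adjusted p = 0.16). H1.2, a linker histone, was at 136 and 242 against 165 and 206 FPKM.

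The Pi starvation genes lay slightly towards poly(A)-, and their levels differed widely, the transporter PHT1;3 being at 1.74 and 4.82 FPKM in poly(A)- and 2.07 and 2.12 FPKM in poly(A)+. Of 30, 19 were higher in poly(A)-, with 8 apart, where 17.9% of all coding genes were, and 2 were apart towards poly(A)+, where 39% were, and the median was -0.20 at a median length of 1835 bases. With 1 library left out, this median lay between -0.34 and 0.04. PLDZ2, a phospholipase D of lipid remodelling, was at 63.0 and 111 FPKM in poly(A)- and 45.2 and 36.7 FPKM in poly(A)+ (-1.02, adjusted p = 0.298). G3Pp1, a glycerol-3-phosphate permease, was at 577 and 483 against 370 and 214 FPKM (-0.90). NPC4, a phospholipase C, and PPCK1, a kinase of PEP carboxylase, had differences of -0.65 and -0.53. The sensor protein gene SPX1 was at 1264 and 818 against 1050 and 721 FPKM and the exporter PHO1 at 155 and 134 against 149 and 178 FPKM, and in both the fractions overlapped.

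**Figure D5:**
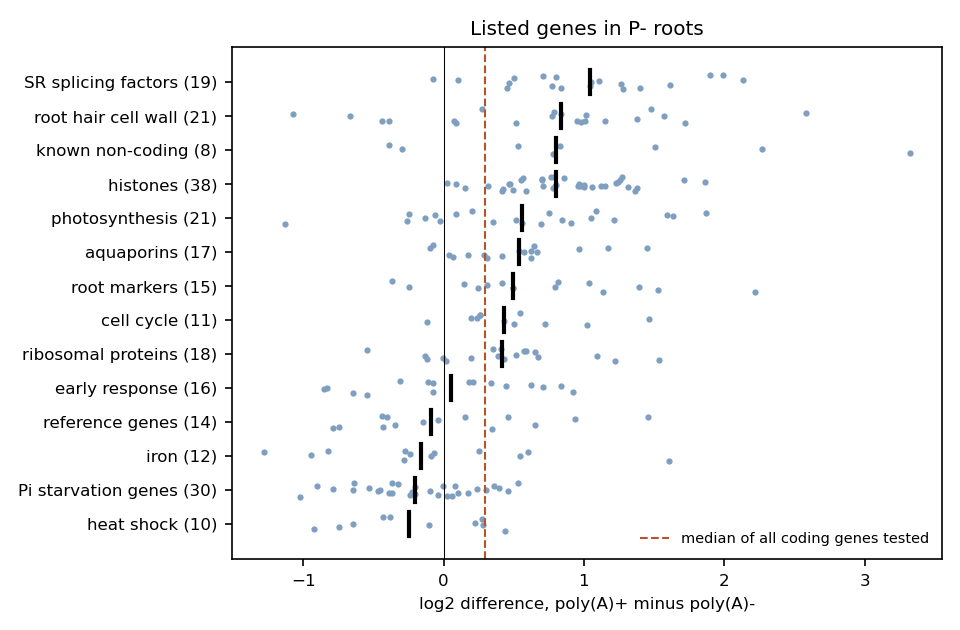
Log2 difference, poly(A)+ minus poly(A)-, of each listed gene (points) in P- roots with the median of each list (black bar) and the median of all coding genes (dashed line, 0.30). The SR splicing factors have the highest median, 1.04, and the heat shock genes the lowest, -0.24, and the points of most lists lie on both sides of 0. With 1 library left out, these medians lay between 0.72 and 0.99 and between -0.98 and 0.61.

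Of the 21 genes in the root hair cell wall list, 17 were higher in poly(A)+, with a median of 0.84. The list also holds root hair genes outside the wall, RHD6, RSL4, COW1 and RHD2 among them. EXT3, an extensin, was at 635 and 810 FPKM in poly(A)- and 2191 and 2551 FPKM in poly(A)+ (1.72, adjusted p = 0.13), and the NADPH oxidase RHD2 lay the other way, at 72.4 and 88.5 against 47.0 and 30.1 FPKM (-1.07). The 17 aquaporins had a median of 0.54, with TIP1;1 at 325 and 344 against 679 and 627 FPKM. The 18 ribosomal protein genes had a median of 0.42 and the 11 cell cycle genes 0.43. The 15 root markers had a median of 0.50, with CASP2, of the Casparian strip, at 37.7 and 35.7 against 112 and 104 FPKM (1.53, adjusted p = 0.12). The 21 photosynthesis genes had 0.56, and RBCS1A was at 13.8 and 17.59 against 50.7 and 70.1 FPKM (1.87).

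The lists near or below 0 were early response genes (median 0.05), reference genes (-0.09), iron genes (-0.16) and heat shock genes (-0.24). The references differed among themselves. UBC9 was at 128 and 152 FPKM in poly(A)- and 362 and 409 FPKM in poly(A)+ (1.46, adjusted p = 0.10), while ACT2 was at 748 and 756 against 474 and 423 FPKM (-0.75, adjusted p = 0.27). BTS, a regulator of the iron response, was at 50.2 and 48.5 against 23.5 and 16.6 FPKM (-1.28, adjusted p = 0.14). HSC70-3, a chaperone, was at 625 and 318 against 314 and 176 FPKM (-0.92).

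Whether the fraction balance differed between P- and P+ roots was tested as an interaction. No gene and no transcript passed by limma, and every adjusted p was 1. At an unadjusted p under 0.05 there were 197 and 157 coding genes and 382 and 272 transcripts with a higher and a lower difference in P- roots. In P+ roots the transcripts with a mitochondrial match had a median of -4.47, beside -4.67 in P- roots. Those alike 7SL had -6.97 beside -5.87, and lncRNAs over a snoRNA -1.27 beside -2.67, and these gaps were not tested. The largest decrease among the genes named by rule was of AT2G07676, whose mean in P+ roots was 7.5e-05 FPKM in poly(A)- and 0.899 FPKM in poly(A)+ (interaction -6.44, SE 1.09). AT2G04800 had means of 87.6 and 257 FPKM there (interaction 4.40, SE 1.26). Of lncRNAs, 410 were poly(A)+ in both, which is 60.5% of those in P- and 57.7% of those in P+ roots. For poly(A)- it was 97, or 39.9% and 33.3%.

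Against P- shoots, 4 of 19698 coding genes, or 0.0203%, had a fraction balance that differed by limma (interaction of tissue and fraction, adjusted p of at most 0.05). All 4 were lower in roots. AT5G58005 was at 24.1 and 24.1 FPKM in poly(A)- roots and 43.2 and 47.3 FPKM in poly(A)+ roots, and at 0 and 0 against 41.7 and 36 FPKM in shoots. The poly(A)- shoot libraries were the shallowest of the P- libraries, with 1 fragment on 1 kb worth 3.55 and 2.36 FPKM. No call was left when any 1 of the 4 root or of the poly(A)+ shoot libraries was left out, while 38 and 286 were called without poly(A)- shoot library 1 and 2. In shoots, transcripts with a mitochondrial match had a median of -3.90, those alike 7SL -6.50 and lncRNAs over a snoRNA -1.81.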

How the data were processed

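Total RNA of wild-type roots was split with oligo(dT) beads, rRNA was depleted with RiboMinus, and the libraries were sequenced (the labels and the methods differ in the order of these steps). Per the labels, TopHat2 and TAIR10 were used, and 1 set of root libraries was mapped without strand and the other as first-strand. The study's methods state that chloroplast and mitochondrial reads were removed and that eXpress made the FPKM. The values deposited by the authors are FPKM per transcript, in 3 tables, with no fragment count. Columns of the authors' own comparisons (fold changes and p-values of Pi starvation) and a coordinate table were also deposited, and the fold changes and p-values were not used. Per the file headers the root columns carry no sample title and were assigned to groups only, while shoot columns were matched to samples by the labels' descriptions. Same-numbered root libraries deviated together in all 6 pairs of groups (correlation 0.15 to 0.24), and both fractions were taken from the same total RNA, so that values with the number as a replicate block are given beside those it moves.

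FPKM were tested as log2(FPKM + 1) with limma 3.58.1 in R 4.3.3 (trend, 8 root libraries in 4 groups, mean of at least 1 FPKM over the 4 P- root libraries, Benjamini-Hochberg over all features, with calls at 2-fold and adjusted p at 0.05). For coding genes, values were summed over transcripts before the test. Tests on simulated data with 200 changed features recovered 93 of 100 genes at a log2 of 2 and 100 of 100 at 4 for coding genes (n = 19240, 11 false calls), and 77 of 100 and 100 of 100 for transcripts (n = 26614, 7 false calls). The simulated libraries were independent and the spread of each feature lay on the trend with level, unlike in the real data. Recovery in the real data can therefore be lower, and the difference of -7.48 of AT1G15405.1 did not pass. The coordinate table of assembled lncRNAs counts starts from 0, since 89.4% of 1351 introns then had GT and AG ends, and it was converted. Sequences and models are of RefSeq, build TAIR10.1, and were found for 34666 coding transcripts, 426 TAIR10 lncRNAs and all 1161 lncRNAs assembled by the study. Matches to the mitochondrial genome, the rDNA repeat and 7SL were made with blastn 2.17.0+ (organelle and rDNA matches at an identity of at least 90% over at least 50 bases per hit).

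Genes were named by rule: the 10 coding genes called in each direction with the largest difference among those with no overlap and a mean of at least 10 FPKM in 1 fraction, 8 lncRNAs likewise at 2 FPKM whether they passed or not, up to 4 members of each list, up to 6 interactions in each direction, and some of those named by the study. Members and lists were chosen with earlier results of these data known, and the groups by sequence match, by length and by snoRNA after the values were seen. Alternatives were other pseudocounts, filters, scalings, sets of libraries, a replicate block, no trend, and leaving out each library.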

Additional observations from a re-analysis of the deposited data

Results flagged for a closer look

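The balance of poly(A)+ over poly(A)- differed between P- roots and P- shoots for 4 coding genes by the limma interaction, on the log2(FPKM + 1) scale. For AT2G18270 the difference, roots minus shoots, was -7.68 (SE 0.55, adjusted p = 0.030), with 238 and 272 FPKM in poly(A)+ shoots and at most 0.539 FPKM in the other P- libraries. For AT3G51660 it was -5.08 (SE 0.42, adjusted p = 0.043), with 9.23 and 8.86 FPKM in poly(A)- roots and 0 and 0 FPKM in poly(A)- shoots, and with 21.8 and 21.0 FPKM in poly(A)+ roots and 76.3 and 72.9 FPKM in poly(A)+ shoots. For AT5G58005 it was -4.43 (adjusted p = 0.043), with both poly(A)- shoot libraries listed at 0. For AT5G02090 it was -4.26 (adjusted p = 0.043), with 84.4 and 72.9 FPKM in poly(A)- roots, 0 and 0 FPKM in poly(A)- shoots and 18.4 and 19.1 FPKM in poly(A)+ shoots. In the poly(A)- shoot libraries, 3 fragments would give 42.7 and 28.4 FPKM for AT2G18270, whose longest model has 249 bases. They would give 13.0 and 8.63 FPKM for AT3G51660, 13.4 and 8.89 FPKM for AT5G58005 and 11.3 and 7.53 FPKM for AT5G02090. The part of this depth in the differences was not tested. AT2G18270 was near 0 in both fractions of P- roots and had no measurable balance there. Its P+ replicates differed widely, at 301 and 3.95e-04 FPKM in poly(A)- roots and 3.8e-09 and 233 FPKM in poly(A)+ shoots.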

How the results depend on the processing

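The poly(A)- libraries were the shallower ones, which may limit what they could show, and each group has 2 libraries. Transcripts called higher in poly(A)+ numbered 5 and became 3 with a pseudocount of 0.1, 145 with all 16 libraries in the fit, and 0 with no filter, with the 4 P- root libraries alone, without the trend, and without any 1 library (0 to 0). Those called higher in poly(A)- numbered 0 and became 16 with a pseudocount of 5, 2 with a mean of at least 5 FPKM, 2 with median-ratio and 11 with same-total rescaling and 66 with all 16 libraries. Coding genes higher in poly(A)+ numbered 28 and became 14 with a pseudocount of 0.1, 4 with no filter, 16 and 18 with the rescalings, 11 with the 4 libraries alone, 242 with all 16 and 0 to 178 without 1 library. Those higher in poly(A)- numbered 32 and became 12, 1, 19 (4 libraries alone), 96 (all 16) and 0 to 40 under the same changes. Listed genes called numbered 0 and became 6 with all 16 libraries. Genes that differed from shoots numbered 4 and became 58 with a pseudocount of 0.1, 1 with a pseudocount of 5 and 0 to 286 without 1 library, alternatives chosen after seeing the data. A class ratio of 4 gave 980 bimorphic and 117 poly(A)- lncRNAs, and passing in all 4 pairings gave 382, 1093 and 77. The cause of these changes was not tested.

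With the replicate number as a block, 0 transcripts and 149 coding genes were called higher in poly(A)+, 0 and 44 in poly(A)-, and 3 listed genes. Same-numbered P- root libraries of the 2 fractions deviated together with a correlation of 0.21 over genes. With the block the Pi supply interaction still had 0 calls.

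Differences of both signs came from leaving out 1 library for TCONS_00003479 (-1.18 to 0.46), TCONS_00003481 (-0.78 to 4.79), TCONS_00012815 (-2.98 to 0.88), TCONS_00019480 (-1.05 to 1.97), TCONS_00050452 (-0.33 to 0.39), TCONS_00057043 (-0.44 to 1.80) and HSP90.1 (-2.26 to 0.77). TCONS_00050452 also turned to -0.10 with median-ratio and -0.16 with same-total rescaling. List medians moved as well, from 0.47 to 1.35 for histones and from -0.03 to 0.98 for photosynthesis genes with 1 library left out. The order of the lists thus depended on single libraries. The Pi supply interaction had 0 calls in every alternative.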
